A study of Xenopus tropicalis with 7 samples.

Results

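The forkhead box genes encode transcription factors that bind DNA through a winged helix domain, and a letter after the name assigns each to a subfamily. In vertebrate embryos the foxa factors act in endoderm, notochord and floor plate. The foxb and foxd factors act mostly in neural plate and brain, foxe and foxi in placodes and epidermis, foxf and foxl1 in the mesenchyme of the gut, and foxh1 is the DNA-binding partner of Smad2 in nodal signalling. The remaining subfamilies include more widely expressed genes, among them foxm1, which drives genes of mitosis, and the foxo factors, which insulin signalling keeps out of the nucleus.

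Forkhead genes were taken from the count table by symbol (fox, a letter and a number), which found 38 of 19884 genes. *foxc1*, *foxc2*, *foxd3*, *foxj1*, *foxj1.2* and a *FOXP3* written in capitals, 6 genes, are not described. Among the 38 genes, 37 carry a symbol that RefSeq also lists for *Xenopus tropicalis* (the exception is *foxh1.2*), and 28 have 1 annotated transcript. Poly(A) RNA was sequenced from whole *X. tropicalis* embryos of the Nigerian (Cam4) strain, wild type in every group, and each library held RNA equal to that of 2 embryos. The study asked which genes respond when Brachyury, the T-box factor of posterior mesoderm and notochord, is depleted. Xbra/Xbra3 KD embryos had received 20 ng of splice- and translation-blocking morpholinos against both Brachyury genes at the 1-cell stage and were collected at stage 32, an early tadpole stage (3 libraries). Control embryos of the same stage had received 20 ng of a control morpholino at the 1-cell stage (3 libraries), and uninjected early tail bud embryos (stage 20) gave 1 library. A morpholino acts in every cell that inherits it and leaves the gene itself intact, so this is a knockdown and not a mutant.

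The libraries held 73740300 to 120160026 counted reads. The 38 forkhead genes together took 0.0711% to 0.0754% of them in the KD libraries, 0.0626% to 0.0671% in the control libraries and 0.0906% in the stage 20 library. Levels are given as CPM (reads of a gene per 1000000 reads of its library) after TMM scaling, which has no correction for transcript length and so compares a gene across libraries and not genes with each other. The shares above are of raw totals, before this scaling, and the most abundant forkhead genes weigh most in them. The gap between KD and control shares is thus not a gap in scaled levels, and it was not tested. Both targeted genes had less RNA after knockdown. *t2* (Xbra3) had 0.515 to 0.772 CPM in the KD and 14.5 to 27.3 CPM in the control libraries, and *t* (Xbra) had 6.3 to 8.55 and 9.9 to 17.5 CPM (edgeR FDR 0.000768 and 0.0551). A translation-blocking morpholino need not lower its target's RNA. Same-numbered KD and control libraries resembled each other, so a fit with the replicate number as a block is given beside the counts and wherever it changed the call of a forkhead gene. Replicate 2 stood apart in both groups: it was the lowest library of both for 11 of the 37 tested forkhead genes and the highest of both for 8, against 22.6% and 24.5% of all genes.

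Of the 38 genes, 37 had at least 10 reads over the 6 stage 32 libraries and were tested. In edgeR's quasi-likelihood test, with false discovery rates (FDR) adjusted over all 16944 genes tested and a threshold of 10%, *foxa4* was lower in KD embryos and *foxb1* and *foxk2* were higher. These 3 forkhead genes are 8.11% of those tested, where 14.4% of all genes were called (6.98% lower and 7.44% higher). With the block, 4 forkhead genes were lower and 7 were higher, 29.7% of those tested, where 38.2% of all genes were called (19.0% lower and 19.2% higher). The KD and control libraries did not overlap for 4 forkhead genes that were lower in the KD (14.6% of all genes) and for 5 that were higher (15.9% of all genes). Both shares of called forkhead genes lay below the share over all genes, which is a description with no test. Fitted changes were below 0 for 12 forkhead genes and above 0 for 25, where 49% of all genes were below 0. The median log2 fold change of the forkhead genes was 0.11 beside 0.01 over all genes. The median of its absolute value was 0.22 beside 0.30. For the 34 genes that were not called, the estimates ran from -1.05 to 1.09, and in 20 of them the 95% interval stayed within a 2-fold change either way. In the other genes not called the interval reached past 2-fold, so 3 libraries a group leave room for a change of that size.

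**Figure D1:**
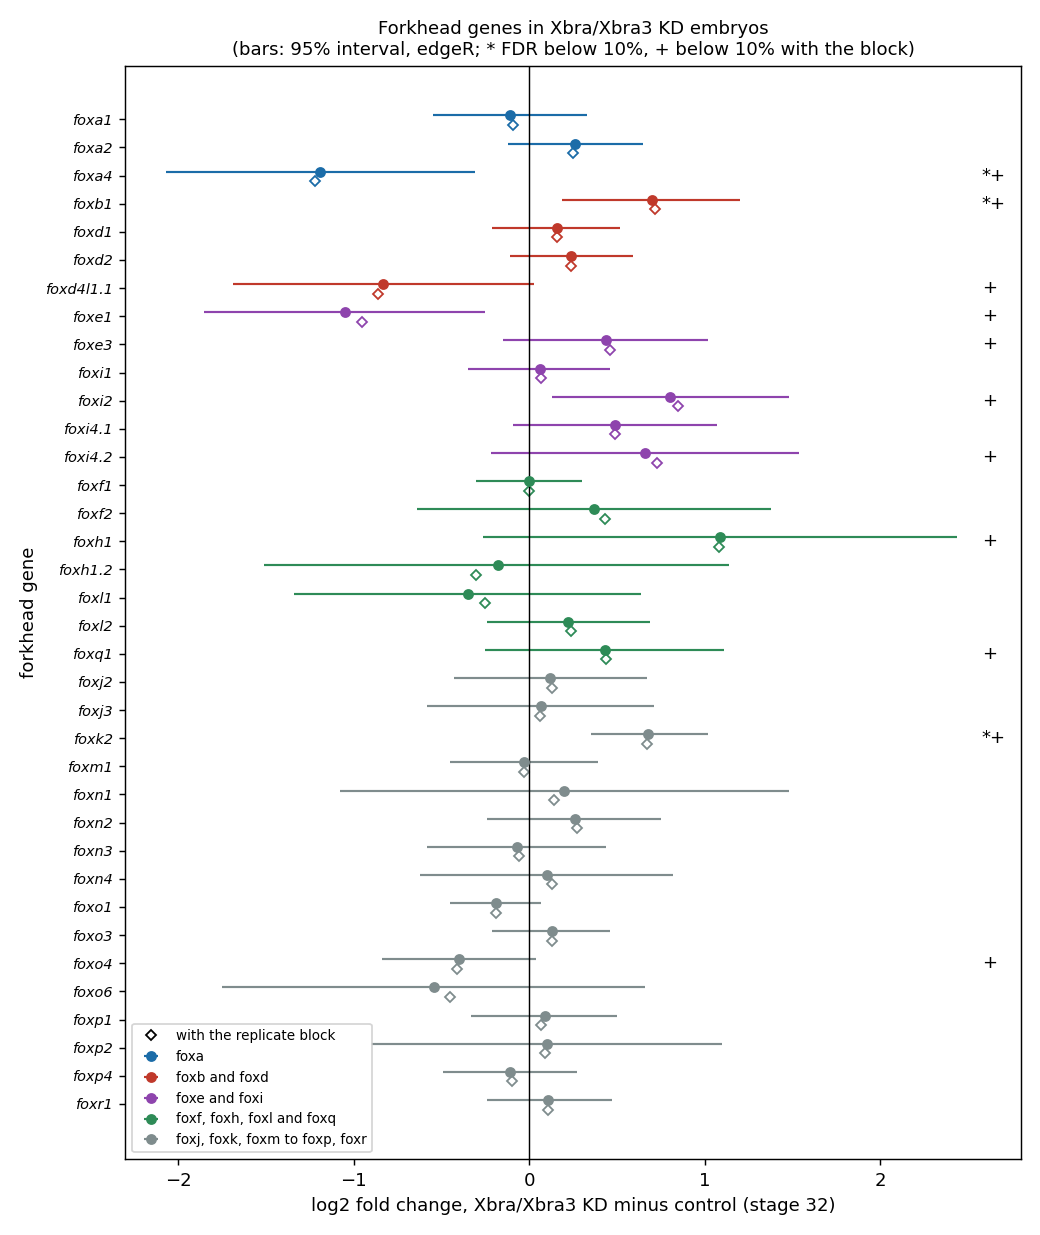
Log2 fold change of 36 of the 37 tested forkhead genes in Xbra/Xbra3 KD relative to control embryos at stage 32 (horizontal axis, filled circles with 95% intervals from edgeR, 3 libraries a group, coloured by subfamily group), with the estimate under the replicate block as open diamonds. *foxa4* lies lowest at -1.19 and *foxh1* highest at 1.09, and the asterisks mark the 3 genes with an FDR below 10%, the plus signs the 11 genes below 10% with the block.

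Of the 3 foxa genes, which can open closed chromatin and act in endoderm and the dorsal midline, only *foxa4* was called. Differences among the 3 were not tested. *foxa4* (ENSXETG00000026171), which in *Xenopus* marks the organizer and then notochord and floor plate, stood at 12.8, 5.03 and 11.1 CPM in KD replicates 1 to 3 and at 31.8, 15.6 and 19.0 CPM in the controls, from 400 to 1314 and 1458 to 3553 reads. Every KD library lay below every control library, and replicate 2 was the lowest of each group. The gene fell 2.28-fold, from 22.1 ± 8.54 to 9.66 ± 4.1 CPM (SD, n = 3 libraries), a log2 change of -1.19 (standard error 0.38, 95% interval -2.07 to -0.31, edgeR FDR 0.099). Within the same replicate number it was 2.48-, 3.10- and 1.71-fold lower, and with the block its FDR was 0.00132. Without the block the call lay at the threshold. It held without control replicate 2 (FDR 0.0743) and without replicate 2 of both groups (0.0629) and was lost without KD replicate 1 (0.113), 2 (0.157) or 3 (0.184) and without control replicate 1 (0.233) or 3 (0.193).

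*foxa1* had 68.3 to 88.8 CPM in the KD and 64.0 to 104 CPM in the control libraries (log2 -0.11, 95% interval -0.55 to 0.33, FDR 0.769). *foxa2*, an early factor of endoderm and node in the mouse, had 13.6 to 19.0 and 12.4 to 15.2 CPM (log2 0.26, interval -0.12 to 0.65, FDR 0.372). The libraries of both groups overlapped for each of these genes, and neither interval reached a 2-fold change. Markers of notochord and endoderm, tissues where foxa factors act, were counted in the same libraries. Of 6 notochord markers, 3 were called lower with and without the block (*cav1*, *cav2* and *matn4* without it), the summed level of the list was 53.7 to 76.7 CPM in the KD and 102 to 164 CPM in the control libraries, no marker was at 0, and *not* stood at 11.3 ± 3.69 and 11.6 ± 3.41 CPM. Of 7 endoderm markers, 6 were tested and 2 called lower (4 with the block), with a summed level of 439 to 955 CPM in the KD and 1212 to 1649 CPM in the control libraries and none of the 6 at 0. Most of that sum came from *darmin* and *ttr*. *darmin* had 262 ± 99.6 CPM in the KD and 750 ± 330 CPM in controls (FDR 0.0658). *ttr* had 437 ± 317 and 663 ± 467 CPM and was not called without the block (FDR 0.705, with the block 0.00869). The part of these tissues in the *foxa4* result was not tested, and in RNA from whole embryos fewer cells of a type and less RNA per cell cannot be told apart. Over a wider list of notochord and floor plate genes, 3 of 17 tested were lower, again *cav1*, *cav2* and *matn4*, and 2 higher (3 and 5 with the block). Over all genes, 6.98% were lower and 7.44% higher (19.0% and 19.2% with the block). Among the higher list genes was *nkx6-1*, a ventral neural tube factor, at 1.03 ± 0.266 CPM in control and 2.19 ± 0.511 CPM in KD embryos (log2 1.07, FDR 0.0686).

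**Figure D2:**
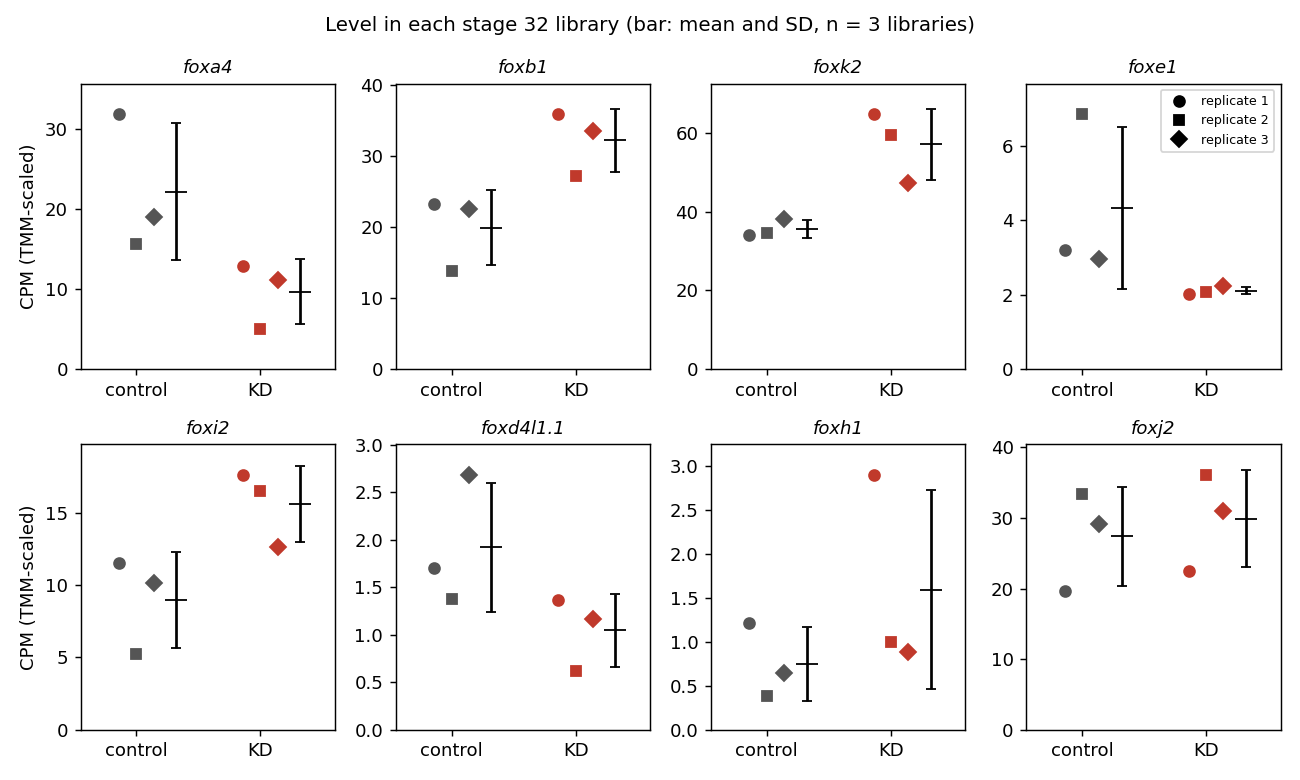
CPM (vertical axes, each starting at 0) in the 3 control and 3 Xbra/Xbra3 KD libraries for 8 forkhead genes, with marker shape for the replicate number and bars for the mean and SD (n = 3 libraries). The groups are apart for *foxa4*, *foxb1*, *foxk2*, *foxe1*, *foxi2* and *foxd4l1.1* and overlap for *foxh1* and *foxj2*.

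Among forkhead genes of the neural plate and brain, *foxb1* rose and the others were not called. *foxb1* (ENSXETG00000017708), which in the mouse marks caudal neural tube and later the hypothalamus and thalamus, stood at 35.9, 27.2 and 33.5 CPM after knockdown and 23.3, 13.8 and 22.6 CPM in controls. The lowest KD library exceeded the highest control library. The rise was 1.62-fold (log2 0.70, standard error 0.22, FDR 0.0941, with the block 0.0028), and by replicate number it was 1.54-, 1.98- and 1.48-fold. The study itself named this gene from these libraries, so its direction is not independent evidence. In the fits without the block, the FDR was above 10% whichever library was left out: 0.212, 0.123 and 0.222 without KD replicates 1 to 3 and 0.113, 0.136 and 0.172 without control replicates 1 to 3. It was 0.082 without replicate 2 of both groups. Of 8 neural markers, 7 were tested, and edgeR called 4 higher and none lower (6 and 0 with the block, 4 and 0 in DESeq2, 4 and 0 at an unadjusted p below 0.05), with a summed level of 1413 to 1503 CPM in the KD against 926 to 1038 CPM in the control libraries and none at 0. The part of the amount of neural tissue in the *foxb1* result was not tested.

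*foxd4l1.1* (ENSXETG00000001667), known in *Xenopus* for keeping neural plate cells undifferentiated, had an estimate in the other direction. It had 139, 49 and 127 reads in the KD and 190, 154 and 206 in the control libraries, or 1.36, 0.616 and 1.16 against 1.70, 1.37 and 2.68 CPM. The groups were apart only by the small gap between KD replicate 1 and control replicate 2. The log2 change was -0.83 (standard error 0.37, interval -1.69 to 0.03), not called without the block (FDR 0.212) and called with it (0.0301). Its neighbour on the chromosome, *foxd4l1.2*, had 4 reads in KD replicate 1, 2 in control replicate 3 and 0 in the other libraries, stage 20 included, and was not tested. The authors counted only pairs assignable to a single gene, so reads shared by similar copies would be missing. The sequences of this pair, of *foxi4.1* and *foxi4.2* and of *foxh1* and *foxh1.2* were not compared here, and their counts are uncertain to that extent.

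*foxd1*, expressed in the ventral diencephalon and retina, had 15.7 ± 1.77 CPM in KD embryos and 14.1 ± 1.84 CPM in controls (log2 0.16, interval -0.21 to 0.52), and *foxd2* had 20.7 ± 2.01 and 17.6 ± 2.48 CPM (log2 0.24, interval -0.11 to 0.59). Both intervals stayed within a 2-fold change, and the libraries of both groups overlapped. Of 16 genes of the telencephalon and anterior brain, edgeR without the block called 2 higher and none lower. At an unadjusted p below 0.05 (25.2% of all genes) it had 5 higher and 0 lower. DESeq2 called 2 higher and 0 lower, and with the block 7 were higher and 1 lower. The genes called without the block were *otx1*, of forebrain and midbrain, with a log2 change of 0.87 (FDR 0.0485) and *dlx5*, of forebrain and placodes, with 0.50 (FDR 0.0614). Over all genes, edgeR called 14.4% without and 38.2% with the block.

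Of the 6 foxe and foxi genes, of placodes, lens, thyroid and epidermis, edgeR called none without the block and 4 with it. At an unadjusted p below 0.05 edgeR had 2, and DESeq2 called 2. Over all genes, edgeR called 14.4% without and 38.2% with the block, and 25.2% had an unadjusted p below 0.05. The DESeq2 share over all genes is not given. *foxe1* (ENSXETG00000024889), a factor of the thyroid and pituitary rudiments, stood at 2.03, 2.07 and 2.22 CPM after knockdown and 3.21, 6.86 and 2.96 CPM in controls. The KD libraries were close to each other and below all controls, and control replicate 2 was well above the other controls (771 reads against 359 and 228). The log2 change of -1.05 (standard error 0.35, interval -1.85 to -0.25) had an edgeR FDR of 0.109, with the block 0.0242 and in DESeq2 0.023. Without control replicate 2 it was -0.57 (FDR 0.177). *foxe3*, the lens factor whose loss stops lens development, had 4.76 ± 0.407 CPM in KD embryos and 3.53 ± 1.03 CPM in controls, higher in all 3 pairs (log2 0.44, FDR 0.327, with the block 0.076). Of 15 lens genes tested, 2 were called higher and 1 lower (4 and 1 with the block), where 14.4% of all genes were called (38.2% with the block). The lens genes called without the block were *sox2* (log2 0.62, FDR 0.0491), the bZIP factor *maf* (log2 -0.47, FDR 0.084) and the crystallin *cryaa*. *sox2* is also counted among the neural markers. *cryaa* had 0.0133 ± 0.0045 CPM in control and 0.468 ± 0.216 CPM in KD embryos, so its control level was near the floor, with hardly any reads.

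All 4 foxi genes had estimates above 0, and *foxi2* had the largest of them. *foxi2* (ENSXETG00000005199), a maternal factor of early *Xenopus* ectoderm, stood at 17.6, 16.5 and 12.6 CPM after knockdown and 11.5, 5.2 and 10.1 CPM in controls. The groups were apart by about 1 CPM, and control replicate 2 lay below the others. The log2 change was 0.80 (standard error 0.29, interval 0.13 to 1.48) with an FDR of 0.133 in edgeR, 0.0251 with the block and 0.0644 in DESeq2, and it was 0.50 without control replicate 2 (FDR 0.172). *foxi4.2*, which promotes ectodermal fate in the early *Xenopus* embryo, had 17.1, 9.91 and 16.7 CPM in KD embryos and 10.6, 4.45 and 12.7 CPM in controls. These groups overlapped, while each KD library exceeded the control of its own number (log2 0.66, FDR 0.323, with the block 0.0097). Its neighbour *foxi4.1* had 2.13 ± 0.113 and 1.52 ± 0.358 CPM without overlap (log2 0.49, FDR 0.269, with the block 0.108). *foxi1*, which specifies the ionocytes of the larval epidermis, had 33.8 ± 4.66 and 32.5 ± 6.26 CPM (log2 0.06, interval -0.35 to 0.46). Of 12 ionocyte genes tested, such as the subunits of the proton pump, edgeR without the block called 1, the carbonic anhydrase *ca2*, which was lower (log2 -0.90, FDR 0.0079). In DESeq2 1 was lower and 1 higher, and with the block 1 was lower and 2 were higher. The share of all genes that edgeR called was 14.4% (38.2% with the block). Of 7 markers of epidermis and ciliated cells, 6 were tested and 1 was called higher, *dnah5* of motile cilia (log2 1.01, FDR 0.00904), while the block gave 2 higher and 1 lower. The list had a summed level of 485 to 1337 CPM in KD embryos and 638 to 1308 CPM in controls. None of the 6 was at 0. Within the sum, *krt* alone had 437 ± 401 CPM in KD embryos and 621 ± 317 CPM in controls. The part of these markers in the foxi values was not tested.

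Of the 7 genes of the foxf, foxh, foxl and foxq subfamilies, grouped by letter, edgeR called none without the block and 2 higher with it. At an unadjusted p below 0.05 edgeR had 0, and DESeq2 called 0. *foxh1* (ENSXETG00000020879) had the highest estimate of all forkhead genes and also the widest interval, and the estimate ran from 0.31 without KD replicate 1 to 1.68 without control replicate 1. It had 297, 79 and 97 reads in the KD and 135, 43 and 50 in the control libraries, or 2.90, 0.993 and 0.884 against 1.21, 0.383 and 0.650 CPM. Replicate 1 was high in both groups, so the groups overlapped, and each KD library exceeded its own control by 2.4-, 2.6- and 1.36-fold. The log2 change was 1.09 (standard error 0.58, interval -0.26 to 2.44, FDR 0.292), and with the block it was 1.08 (standard error 0.25, FDR 0.0149). Its paralogue *foxh1.2*, with 4 to 45 reads per stage 32 library, had an estimate of -0.18 (interval -1.51 to 1.14). Of 20 genes of nodal signalling tested, 2 were lower and 2 higher (5 and 3 with the block), where 14.4% of all genes were called (38.2% with the block). Lower were *smad2*, the partner of foxh1, at 5.21 ± 0.768 CPM in control and 1.65 ± 0.172 CPM in KD embryos (log2 -1.66, FDR 0.00631), and *gdf3*, a ligand of the same pathway, at 1.51 ± 0.442 and 0.438 ± 0.14 CPM (log2 -1.77, FDR 0.0291). Higher were the ligands *nodal3*, at 0.0831 ± 0.0543 CPM in control and 0.412 ± 0.098 CPM in KD embryos (log2 2.22, FDR 0.0359), and *nodal*, at 0.144 ± 0.0332 and 0.429 ± 0.0164 CPM (log2 1.58, FDR 0.0398). Both ligands stood at low levels in both groups, so few reads carry these changes.

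*foxf1*, the factor of visceral mesoderm, had the estimate closest to 0 of the 37 genes, with 94.3 ± 9.21 CPM after knockdown and 94.3 ± 10.5 CPM in controls (log2 0.00, interval -0.30 to 0.30). *foxf2* had 0.967, 1.86 and 1.04 against 0.528, 1.5 and 0.910 CPM, above its own control in all 3 pairs (log2 0.37, interval -0.64 to 1.38). Its neighbour *foxq1* had 6.27 ± 1.72 and 4.63 ± 1.48 CPM and was again higher in all 3 pairs (log2 0.43, FDR 0.414, with the block 0.0696). *foxl1*, of gut mesenchyme in the mouse, had a log2 change of -0.35 (interval -1.34 to 0.64) and *foxl2*, the ovary factor, of 0.22 (interval -0.24 to 0.69). Of 16 genes of visceral and lateral plate mesoderm tested, 4 were called higher and none lower, including *isl1* (log2 0.69, FDR 0.0167), *bmp4* (0.76, FDR 0.0193) and *gata5* (0.51, FDR 0.0633). At an unadjusted p below 0.05 (25.2% of all genes), edgeR had 7 of these 16 higher and 0 lower. DESeq2 called 4 higher and 0 lower, and with the block 8 were higher and 3 lower. In edgeR, 7.44% of all genes were called higher and 6.98% lower (19.2% and 19.0% with the block). Of 5 heart markers tested none was called (1 at an unadjusted p below 0.05, 0 in DESeq2, and 5 higher with the block), and of 6 blood markers 1 was lower (2 with the block).

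In the 16 genes of the foxj, foxk, foxm to foxp and foxr subfamilies, *foxk2* rose and the others were not called without the block. *foxk2* (ENSXETG00000022803), which represses autophagy genes in mammalian muscle cells, stood at 64.8, 59.4 and 47.2 CPM in KD embryos and 34.0, 34.7 and 38.1 CPM in controls, from 4724 to 6635 and 2927 to 3896 reads. The control libraries were close to each other and all KD libraries above them. The rise was 1.61-fold (log2 0.68, standard error 0.14, interval 0.35 to 1.02, FDR 0.0295, with the block 0.00611). It kept an FDR below 10% without any 1 of the 6 libraries (0.0324 to 0.0975) and in DESeq2 (0.00158), and had 0.126 without replicate 2 of both groups. By replicate number the rise was 1.91-, 1.71- and 1.24-fold.

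The 4 foxo genes, which insulin and growth factor signalling holds in the cytoplasm, were measured at 1.07 to 45.4 CPM on average in the KD libraries. *foxo4* had 9.16, 6.25 and 6.61 CPM after knockdown and 10.4, 9.07 and 9.62 CPM in controls, lower in all 3 pairs, with KD replicate 1 just above control replicate 2 (log2 -0.40, FDR 0.238, with the block 0.047). *foxo1* had the smallest spread of the family over the controls, with a coefficient of variation of 1.48%. Its KD libraries lay below all of them at 23.8 ± 1.54 against 27.1 ± 0.402 CPM (log2 -0.19, interval -0.45 to 0.07, FDR 0.349). *foxo3* had 45.4 ± 5.57 and 41.6 ± 5.32 CPM (log2 0.13, FDR 0.635). *foxo6* had the largest spread over the controls (65.5%), from 0.841, 2.64 and 1.04 CPM, and 0.723, 1.67 and 0.820 CPM in the KD (log2 -0.54, interval -1.75 to 0.66). Of 23 genes of insulin signalling and FOXO response tested, 3 were called higher and 1 lower (7 and 1 with the block), where 14.4% of all genes were called (38.2% with the block). *insr*, the insulin receptor, went from 16.8 ± 2.65 to 34.1 ± 2.73 CPM (log2 1.02, FDR 0.0095) and *pdk4*, a kinase that slows glucose oxidation, from 87.1 ± 12.3 to 138 ± 17.7 CPM (log2 0.66, FDR 0.0378). *trim63*, a ubiquitin ligase of muscle, went from 61.5 ± 5.71 to 27.3 ± 5.77 CPM (log2 -1.17, FDR 0.0095). In the same libraries 8 of 9 skeletal muscle markers tested, out of 10 named, were called lower (8 lower and 1 higher with the block), with a summed level of 7382 to 9034 CPM in the KD and 16589 to 18058 CPM in the control libraries and none of the 9 at 0. The 1 higher with the block was *myh6* (log2 0.45, FDR with the block 0.021), which is also counted among the heart markers. The part of muscle in the *trim63* value was not tested.

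*foxm1* had 43.6 to 63.5 CPM over the KD libraries and 44.8 to 62.9 CPM over the controls (log2 -0.03, interval -0.45 to 0.39, FDR 0.946), with pair ratios of KD to control between 0.958 and 1.01. Of 21 genes of mitosis that foxm1 is known to drive or to act beside, none was called without the block in edgeR (1 at an unadjusted p below 0.05), DESeq2 called 1 lower, and with the block 3 were lower and 1 higher. *bub1*, of the spindle checkpoint, had the lowest FDR of the list (log2 -0.59, FDR 0.13, with the block 0.00152). The share of all genes that edgeR called was 14.4% (38.2% with the block).

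*foxn4*, needed for amacrine cells of the retina and for spinal interneurons in the mouse, had 73.0, 43.1 and 46.7 CPM in KD embryos and 74.3, 33.8 and 44.0 CPM in controls. Its replicate 1 was high in both groups, and the log2 change was 0.10 (interval -0.62 to 0.82). *foxn2* had 3.07 ± 0.123 and 2.55 ± 0.466 CPM without overlap (log2 0.26, interval -0.24 to 0.75), and *foxn3*, a checkpoint factor, 1.85 ± 0.0903 and 1.93 ± 0.296 CPM. *foxn1*, the factor of thymus and skin, had 5 to 23 reads per stage 32 library, too few for more than the wide interval of -1.08 to 1.48. *foxp1*, *foxp2* and *foxp4*, factors of motor neurons, forebrain and lung, had estimates of 0.09, 0.10 and -0.11, with FDRs of 0.726 or more. *foxj2* (ENSXETG00000027639), *foxj3* and *foxr1* had estimates of 0.12, 0.07 and 0.11. *foxj2* had 22.5, 36.1 and 31.0 CPM after knockdown and 19.7, 33.4 and 29.2 CPM in controls, an order by replicate that both groups shared. Reads of *foxn2*, *foxn3*, *foxp1*, *foxp2* and *foxp4* came from several transcripts, with 57% (*foxp4*) to 97.0% (*foxp1*) on the most abundant.

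**Figure D3:**
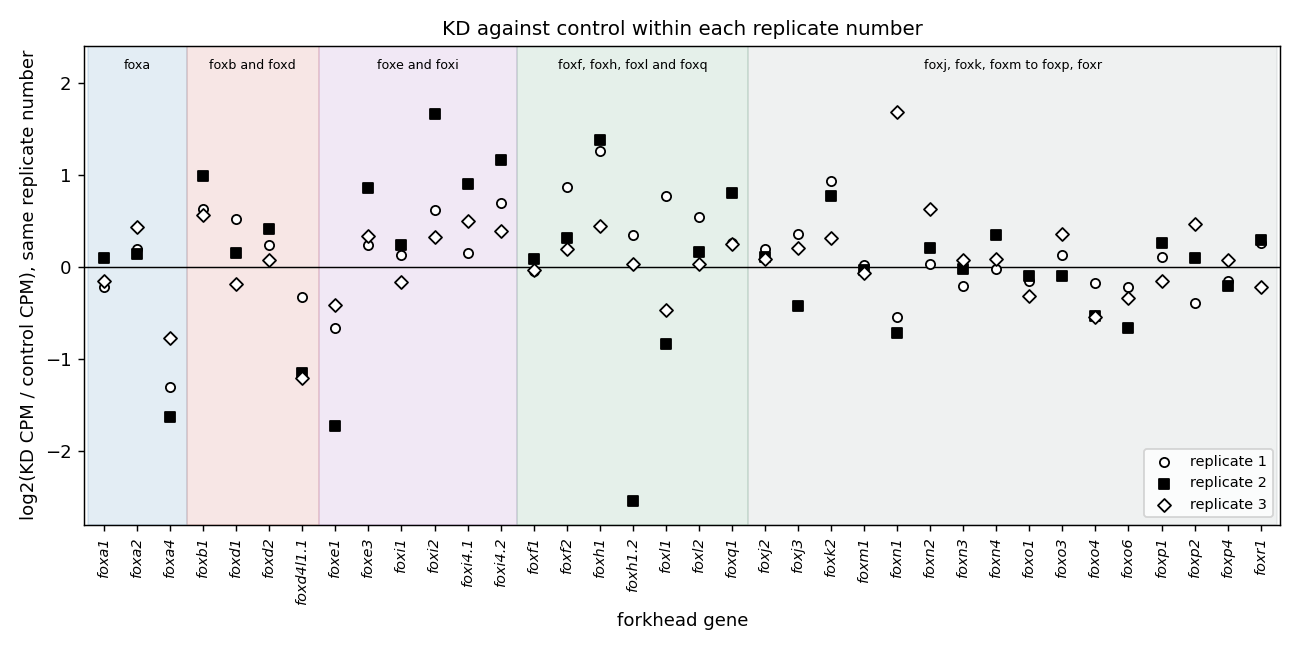
Log2 ratio of KD to control CPM (vertical axis) within replicates 1, 2 and 3 for 36 of the 37 tested forkhead genes (horizontal axis, shaded by subfamily group). In 14 genes all 3 ratios lie above 0 and in 6 all 3 lie below, and the replicate 2 ratio (black squares) is the farthest from 0 for *foxa4*, *foxb1*, *foxe1* and *foxi2*.

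Within the replicate numbers, 14 of the 37 genes were higher in the KD in all 3 pairs (29.9% of all genes were) and 6 were lower in all 3 (28.4% of all genes were). The 14 were *foxa2*, *foxb1*, *foxd2*, *foxe3*, *foxf2*, *foxh1*, *foxi2*, *foxi4.1*, *foxi4.2*, *foxj2*, *foxk2*, *foxl2*, *foxn2* and *foxq1*, and the 6 were *foxa4*, *foxd4l1.1*, *foxe1*, *foxo1*, *foxo4* and *foxo6*. The 11 genes called with the block were all among these 20. The block fit itself compares KD with control within replicate numbers, so this overlap is no separate evidence. On the chromosomes of the UCB_Xtro_10.0 assembly, *foxe3* lies beside *foxd2*, *foxf2* beside *foxq1* and *foxi4.1* beside *foxi4.2*, with no gene between. These 6 genes were in the group of 14, which was noticed after the values were seen. None of the 6 was called without the block, and neighbouring genes in general were not examined. *foxd4l1.1* was lower in all 3 pairs, and its neighbour *foxd4l1.2* was not tested. The other neighbouring forkhead pairs hold a gene not described here. Over the controls, the median coefficient of variation was 23.5% for the forkhead genes and 17% for all genes.

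The stage 20 library shows the levels of these genes in younger, uninjected embryos. It has no replicate, and its embryos were not injected while those of stage 32 were, so stage and injection cannot be told apart and no test was made. It was set against the mean of the 3 control libraries after adding 0.5 CPM, and since the KD is compared with those same control libraries, the comparisons are not independent. Of the 37 genes, 10 were at least 2-fold above the control mean (8.76% of all genes were) and 2 at least 2-fold below (13.4% of all genes were), which is 27% and 5.41% of the forkhead genes. The median log2 ratio was 0.32, beside -0.02 over all genes. The stage 20 level lay above all 3 control libraries for 21 genes, below them for 10 and among them for 6. These range counts were not made over all genes, so they cannot be read as particular to the forkhead genes.

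*foxh1* differed most, with 2936 reads at stage 20 (27.2 CPM) against 43 to 135 in the control libraries (0.740 ± 0.419 CPM, n = 3), 22.3-fold higher on the scale with 0.5 CPM added. *foxd4l1.1* came next, with 1747 reads (16.2 CPM) against 154 to 206 reads (1.90 ± 0.682 CPM), a 6.96-fold difference. Both genes act in the gastrula and early neural plate, and both still had reads in every stage 32 library. *foxb1* stood 3.94-fold above the control mean. *foxa1* (2.60-fold), *foxi4.2* (2.55-fold), *foxq1* (2.52-fold), *foxa4* (2.50-fold), *foxi1* (2.26-fold), *foxi4.1* (2.22-fold) and *foxk2* (2.11-fold) made up the rest of the 10. With the 7 libraries scaled together, *foxa4* had 55.6 CPM at stage 20, 21.9 ± 8.51 CPM in the stage 32 controls and 9.45 CPM on average in the KD, and *foxk2* had 75.0, 35.2 ± 2.27 and 55.9 CPM. For both, the stage 20 level was above all 6 stage 32 libraries.

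*foxj2* showed the opposite order, with 311 reads at stage 20 (2.88 CPM) and 2197 to 3752 reads in the control libraries (27.1 ± 6.88 CPM), 8.17-fold lower at stage 20. *foxo6* had 9 reads at stage 20 and 80 to 297 in the control libraries, 3.41-fold lower with 0.5 CPM added and 17.9-fold lower without it. *foxo3* (1.90-fold), *foxp2* (1.76-fold), *foxl2* (1.71-fold), *foxf1* (1.70-fold), *foxl1* (1.63-fold) and *foxo1* (1.51-fold) lay below all 6 stage 32 libraries but within 2-fold of the control mean. *foxm1* (53.7 CPM at stage 20, 54.8 ± 9.51 CPM in controls), *foxi2* (8.59 and 8.85 ± 3.30 CPM) and *foxr1* (12.5 and 11.6 ± 1.13 CPM) lay among the controls.

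**Figure D4:**
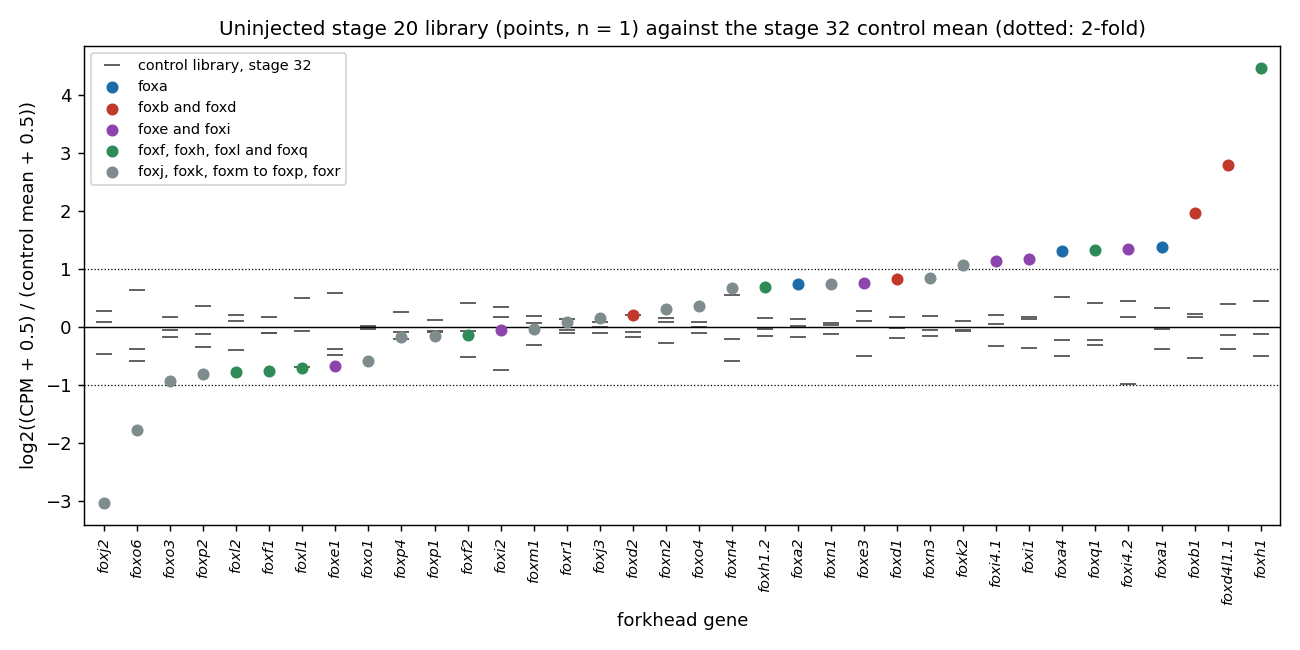
Log2 ratio of the uninjected stage 20 library to the stage 32 control mean after adding 0.5 CPM (vertical axis, coloured points, 1 library) for 36 of the 37 tested forkhead genes in order of the ratio, with the 3 control libraries as grey dashes and dotted lines at a 2-fold difference. *foxj2* lies lowest at -3.03 and *foxh1* highest at 4.48, and 10 genes lie above the upper line and 2 below the lower.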

How the data were processed

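Paired-end sequencing gave reads of 55 bases. The authors used Bowtie 0.12.7 with up to 3 mismatches against Ensembl transcripts of the JGI4.1 build. Only pairs assignable to a single gene contributed, each as 1 count, and the deposited values are raw read counts per transcript. CASAVA 1.8 and DESeq are also named in the submitters' processing notes. The header of the deposited table has 7 names that were read in order over its 7 value columns, with 0 columns left unused.

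Counts were summed per gene. A minimum of 10 reads, summed over the 6 libraries of stage 32, was set, and KD was tested against control with edgeR 4.0.16 (R 4.3.3, TMM scaling, quasi-likelihood F-test, Benjamini-Hochberg adjustment over all genes) at a 10% FDR threshold as in the study. Intervals are 95% intervals of the log2 fold change. The fit was tried on counts simulated without a replicate effect, where 155 of 200 changed genes were called and 6.63% of the calls were false. The present libraries have such an effect, so that simulation does not cover them. Its changed genes were drawn from genes above a minimum mean read count and had changes of fixed size. Runs with a simulated replicate effect were also made, and their results are not given here. The stage 20 library was left out of the fit and compared as CPM + 0.5. DESeq2 1.42.0 and the other alternatives are given below, as are their effects. With 3 libraries a group, an exact permutation test cannot give a p below 0.1, so none is given for single genes. The labels call the libraries biological replicates. Deviations from the group means correlated at 0.573, 0.586 and 0.316 between KD and control libraries of the same number and at -0.51 to 0.00961 between different numbers, so the numbers were taken as pairs. Deviations cancel out within a group, so part of this contrast is arithmetic. The pairing was inferred from the same data that the block was then fitted to.

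Forkhead genes and all lists were chosen with earlier results of these data known. Values in every library are given for forkhead genes with an FDR below 10%, or below 10% with the block and without overlap, for *foxb1*, and for those at least 4-fold different at stage 20 with at least 20 reads in the higher group. A few other forkhead genes with library values were picked after their values were seen. Up to 3 genes with the lowest FDR are named for each list, and *nodal* was added after its value was seen. Counts of called list genes, markers included, are to be read against the shares over all genes, 14.4% without and 38.2% with the block. These shares are not repeated beside every marker count, and no list was tested as a set. The values of 1 tested forkhead gene are not reported here, and it counts in the totals only. Sequences and coordinates are not used here, since the reference at hand, the RefSeq gene table of UCB_Xtro_10.0, is another assembly and served only for names and for which genes are neighbours.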

Additional observations from a re-analysis of the deposited data

How the results depend on the processing

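The count of forkhead genes called lower in the KD (1) was 4 with the replicate block, 2 in DESeq2, 0 with DESeq2 size factors in edgeR, 0 at an FDR of 5% and 0 with edgeR's legacy dispersions, and 0 to 1 when 1 library was left out. The count called higher (2) was 7 with the replicate block, 3 in DESeq2, 3 with library size only, 1 with DESeq2 size factors, 1 at an FDR of 5%, 1 without replicate 2 of both groups and 1 in each fit without 1 library. At an unadjusted p below 0.05, edgeR had 5 forkhead genes, 13.5% of those tested, beside 25.2% of all genes. Over all genes, 14.4% were called in the main fit and 38.2% with the block. For the other settings no share over all genes is given. A moved forkhead count there cannot be told from a change in how many genes were called in total. Legacy dispersions and the fit without replicate 2 of both groups were chosen after seeing the data. Over 17 alternatives, *foxk2* stayed below its FDR threshold in 16, *foxa4* in 9 and *foxb1* in 9, and no called gene changed direction. The fits with a larger prior count, the most abundant transcript alone, no read filter or edgeR's own filter differ little from the main fit. In them *foxa4* had FDRs of 0.0961 to 0.0992 and *foxb1* 0.0905 to 0.0962, so they add little to these tallies. The block added 8 genes to the 3 called and lost none. The median log2 fold change (0.11) was 0.19 with library size only and 0.06 to 0.14 without 1 library. With library size only, *foxa1* moved from -0.11 to -0.03 and *foxk2* from 0.68 to 0.76. The median over all genes in these settings is not given, so a shift shared by all genes is not set apart. The stage 20 counts (10 above, 2 below) ran from 9 to 12 and from 2 to 3.

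Some genes that were not called changed sign. *foxf1* (0.00) was at -0.01 with DESeq2 size factors and -0.01 in DESeq2, and with library size only *foxm1* was at 0.05 and *foxn3* at 0.00. Without replicate 2 of both groups the values were -0.06 for *foxf1*, 0.18 for *foxh1.2*, -0.04 for *foxi1*, 0.09 for *foxl1*, -0.00 for *foxn4* and -0.04 for *foxp1*. Without 1 library the ranges were -0.29 to 0.08 for *foxa1*, -0.09 to 0.10 for *foxf1*, -0.75 to 0.20 for *foxh1.2*, -0.12 to 0.14 for *foxi1*, -0.07 to 0.29 for *foxj2*, -0.03 to 0.17 for *foxj3*, -0.70 to 0.17 for *foxl1*, -0.18 to 0.09 for *foxm1*, -0.40 to 0.41 for *foxn1*, -0.15 to 0.06 for *foxn3*, -0.18 to 0.48 for *foxn4*, -1.0 to 0.14 for *foxo6*, -0.11 to 0.21 for *foxp1*, -0.21 to 0.43 for *foxp2* and -0.21 to 0.02 for *foxp4*. The cause was not tested.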
